A study of Mus musculus with 12 samples.

Results

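The proteasome subunit genes of the mouse were followed in cultures of the mouse embryonic stem cell (ESC) line J1 after infection with a short hairpin RNA against Ino80 (shIno80) or a non-targeting one (shNT). The genes were chosen by name only: every non-control probe of the array whose gene name starts with Psma, Psmb, Psmc, Psmd or Psme and a number. This gave 64 of 41174 probes, which stand for 43 of the 19184 genes kept for testing, and each of the 43 genes kept at least 1 probe. Of these, Psmb8, Psmb9 and Psmb10 encode the immunoproteasome subunits and are set apart, and Psmc3ip matches the name rule but encodes a meiotic recombination factor and no subunit. The remaining 39 genes are called the standard members. The groups were shIno80 at days 2, 4 and 6 and shNT at days 2, 4 and 6 after infection, with 2 arrays in each of the 6 groups and total RNA of all cells of a culture on 1 array. Both hairpins were delivered into the same line in the same way, which the study's design and protocol call an infection and the sample descriptions a transfection. The labels number the 2 samples of a group as replicates without describing their cultures, and a p-value here covers only the spread between such samples, which may be technical.

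The proteasome is the protease that degrades most short-lived and damaged cellular proteins after they have been tagged with ubiquitin. Its core particle is a stack of rings of alpha subunits (Psma genes), which form the gate, and beta subunits (Psmb genes), of which Psmb5, Psmb6 and Psmb7 carry the proteolytic sites. The regulatory particle on its end consists of ATPases (Psmc genes) that unfold the substrate and of non-ATPase subunits (most Psmd genes) that bind and remove ubiquitin, and Psme genes encode alternative activators. Under interferon, newly assembled core particles take up Psmb8, Psmb9 and Psmb10 in place of Psmb5, Psmb6 and Psmb7, and this immunoproteasome makes peptides suited to presentation on MHC class I, which ESCs carry at low level.

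Values are log2 of the processed green intensity minus log2 of the array's 75th percentile, called log2 relative signal below, and 0 therefore stands for a probe at that percentile. The standard members were among the bright probes of the array: all 39 were well above background on all 12 arrays, and their mean log2 relative signal lay between 1.19 for Psmd9 and 6.62 for Psmd3, with a median of 4.68 that 4.51% of all genes exceeded. Between 61.85% and 69.16% of all probes were well above background on an array. The 2 deposited records name different samples for 6 of the 12 arrays, since the arrays at slide positions 2 and 3 are exchanged between the hairpins on each of the 3 slides; the samples of the deposited value table's columns are used, and under the other record 2, 7 and 0 of all genes were called at days 2, 4 and 6. Ino80 itself had a log2 relative signal of −0.29 and 0.12 in shIno80 arrays, against 2.26 and 2.16 in shNT arrays at day 4. That check is not independent, since the record was chosen with the Ino80 signal known. All 6 ESC markers looked at were well above background on every array, and at days 4 and 6 all 6 were lower in shIno80 arrays. At day 4 the summed linear signal of the 8 trophectoderm markers was 150.0 to 161 in shIno80 arrays, against 12.9 to 13.9 in shNT arrays, and that of the 8 fibroblast markers 4.45 to 4.87 in shIno80 arrays, against 1.61 to 1.77 in shNT arrays. Most of the first sum was Krt8 and Krt18 and most of the second S100a4 in shIno80 arrays. Thy1 of the fibroblast list was called lower on all 3 days, and Tfap2c of the trophectoderm list at days 2 and 6. The part of this shift in the results below was not tested, and in bulk RNA fewer cells of a type and less RNA per cell cannot be told apart.

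The immunoproteasome genes Psmb8 and Psmb9 rose in shIno80 cells, most at day 4, while Psmb10 did not pass the test on any day. Each immunoproteasome subunit is the close relative of the constitutive subunit whose place it takes, and the probes printed here are those of each pair that share most bases. They are shown for the 2 pairs whose immunoproteasome gene was called at day 4, where the fitted differences of the 2 genes had opposite signs. The pair of Psmb10 (−0.37) and Psmb7 (0.02) also had opposite signs at day 4, with the immunoproteasome gene the lower one. Neither of these passed the test, and that pair is not printed. Capitals mark bases that are identical at the best ungapped alignment of the 2 probes of a pair, and the coordinates are those of the array files on build mm7.
Psmb8 (chr17:32280668-32280727, plus strand): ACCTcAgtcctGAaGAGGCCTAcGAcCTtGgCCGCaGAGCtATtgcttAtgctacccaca
Psmb5 (chr14:49480764-49480823, minus strand): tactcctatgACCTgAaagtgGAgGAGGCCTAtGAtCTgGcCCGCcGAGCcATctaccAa
Psmb9 (chr17:32262147-32262206, minus strand): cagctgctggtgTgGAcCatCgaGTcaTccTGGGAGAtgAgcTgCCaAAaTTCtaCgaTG
Psmb6 (chr11:70609086-70609145, plus strand): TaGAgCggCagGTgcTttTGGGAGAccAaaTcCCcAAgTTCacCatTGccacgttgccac
Of the 50 aligned bases of the Psmb8 and Psmb5 probes 31 were identical (62.0%), and of the 48 aligned bases of the Psmb9 and Psmb6 probes 27 were identical (56.2%). For Psmb8 this is the dimmer of its 2 probes, and the values below are from the brighter one.

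Psmb8, which carries the chymotrypsin-like site of the immunoproteasome, had a log2 relative signal of −5.81 and −4.46 in shIno80 arrays, against −5.71 and −5.90 in shNT arrays at day 2. It was not well above background on either shNT array of day 2 and on 1 of the 2 shIno80 arrays, so no fold is given there, and the test was not passed (limma adjusted p = 0.423). At day 4 its log2 relative signal was −2.22 and −2.16 in shIno80 arrays, against −4.04 and −4.87 in shNT arrays, and the groups did not overlap. The difference of 2.27 on the log2 scale (SE 0.46, 4.81-fold, limma adjusted p = 0.00448) was the highest of the 43 genes, and the second probe gave 2.23. Its size depended on the processing: over 12 other settings it lay between 0.91 (normexp and quantile) and 2.68 (without replicate 1 of shNT), with 1.36 in the authors' deposited values. By day 6 the log2 relative signal was −1.01 and −0.97 in shIno80 arrays, against −1.50 and −2.41 in shNT arrays, and the difference of 0.97 (SE 0.46) did not pass the test (limma adjusted p = 0.115). It did pass with normexp and quantile (0.56, limma adjusted p = 0.00912) and in the authors' deposited values (1.02, limma adjusted p = 0.000727). Within hairpins, Psmb8 in shIno80 cells was 2.95 higher at day 4 than at day 2 on the log2 scale (limma adjusted p = 0.00145), with 1 of the 2 day 2 arrays not well above background. In shNT cells it was 2.50 higher at day 6 than at day 4 (limma adjusted p = 0.0139). Each slide held the 4 arrays of 1 day, so in such changes within a hairpin the slide and the day cannot be told apart.

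Psmb9, the immunoproteasome's counterpart of Psmb6, was well above background on all 12 arrays, and its replicate arrays lay close together. At day 2 the log2 relative signals were −2.11 and −2.02 in shIno80 arrays, against −2.39 and −2.48 in shNT arrays. They were −0.72 and −0.85 in shIno80 arrays, against −1.67 and −1.78 in shNT arrays at day 4 and −0.93 and −0.93 in shIno80 arrays, against −0.96 and −1.03 in shNT arrays at day 6. The difference on the log2 scale was 0.37 at day 2, 0.94 at day 4 (1.92-fold) and 0.07 at day 6 (SE 0.10 each, limma adjusted p = 0.0453, 0.000149 and 0.601). In the authors' deposited values the day 6 difference was 0.32 and passed (limma adjusted p = 0.0287). The day 2 value lost its call without any 1 of the 4 arrays of that day, and over 13 other settings its adjusted p lay between 0.0316 and 0.34. The day 4 calls of Psmb8 and Psmb9 held in all of the 12 and 13 other settings in which each gene was tested, apart from the record of the scanner files, under which the differences were −0.39 and −0.12 (limma adjusted p = 1 for both). The shIno80 arrays reached their day 6 level of Psmb9 by day 4, and the shNT arrays came up to it between days 4 and 6, where they were 0.73 higher (limma adjusted p = 0.00648). The difference between hairpins changed between days: it was larger at day 4 than at day 2 by 0.57 (limma adjusted p = 0.0293) and smaller at day 6 than at day 4, a change of −0.87 (limma adjusted p = 0.0177). With array medians as the scale both calls were lost, at 0.48 and −0.82 (limma adjusted p = 0.128 and 0.0518).

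Psmb10, the counterpart of Psmb7, passed the test on no day. At day 2 its log2 relative signals were 3.79 and 4.01 in shIno80 arrays, against 3.43 and 3.80 in shNT arrays. The day 4 arrays gave 4.24 and 4.15 in shIno80 arrays, against 4.47 and 4.64 in shNT arrays, with both shIno80 arrays below both shNT arrays, and at day 6 4.00 and 3.80 in shIno80 arrays, against 4.14 and 4.10 in shNT arrays. The differences were 0.29, −0.37 and −0.22 at days 2, 4 and 6 (SE 0.15, limma adjusted p = 0.277, 0.0831 and 0.263). With array medians as the scale the day 4 value was −0.51 and passed the test (limma adjusted p = 0.04). The day 2 value passed in the other direction under quantile normalization (0.36, limma adjusted p = 0.0386) and with normexp and quantile (0.34, limma adjusted p = 0.0153). In shNT cells Psmb10 was 0.94 higher at day 4 than at day 2 (limma adjusted p = 0.006). Blood cells carry the immunoproteasome at high level, and of 5 kept blood markers 1 was called higher and 2 lower at day 4. The one called higher was Ptprc, which marks white blood cells. Its tested probe had a log2 relative signal of −5.30 and −5.30 in shIno80 arrays, against −7.30 and −7.91 in shNT arrays at day 4 (limma adjusted p = 8.78e-05). Those 2 shIno80 arrays were the only ones of 12 on which that probe was well above background, and its other 3 probes were so on 0, 0 and 1 arrays. The summed linear signal of 6 blood markers at day 4 was 0.879 to 0.977 in shIno80 arrays, against 1.33 to 1.37 in shNT arrays, of which Cd68 made up most. The part of blood cells in the rise of Psmb8 and Psmb9 was not tested.

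**Figure D1:**
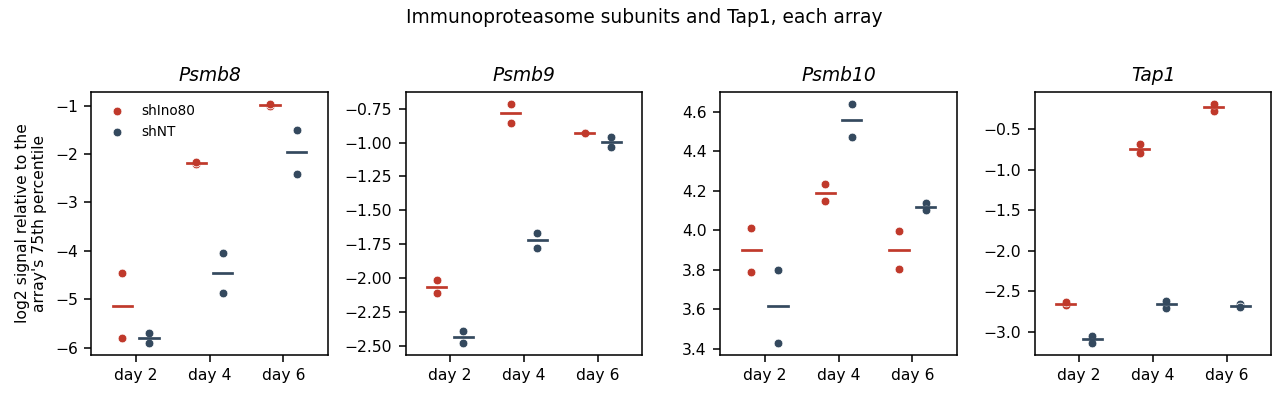
Log2 relative signal of Psmb8, Psmb9, Psmb10 and the peptide transporter gene Tap1 on every array, by day, with shIno80 in red to the left of shNT in dark blue; each dot is 1 array and each line the mean of 2. At day 4 both shIno80 arrays lie above both shNT arrays for Psmb8, Psmb9 and Tap1 and below them for Psmb10, and at day 6 the gap of Psmb9 has closed to 0.07 while that of Tap1 is 2.45.

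Promoter windows of 250 bases upstream and 50 downstream of the start were found for 35 of the 42 subunit genes in the RefSeq table of build GRCm38.p6. No entry was found for Psma8, Psmb1, Psmb2, Psmb7, Psmc3, Psmd3 and Psmd7. They were searched on both strands for the letters of 3 motifs whose factors are known to act on this gene family: TTCNNNGAA, the GAS motif bound by STAT proteins; the interferon-stimulated response element, taken as GAAA, any 2 bases and GAAA; and TGACNNNGC, the core of the antioxidant response element, which the proteasome regulator Nfe2l1 binds with small Maf proteins. TTCNNNGAA was found in 2 of the 35 windows (5.71%, Psmb8 and Psmd2), against 8.3% of all 32851 windows. The interferon-stimulated response element was found in 4 windows (11.4%; Psmb3, Psmd4, Psmd9 and Psme1), against 3.44% of all windows. TGACNNNGC was found in 6 windows (17.1%; Psmb5, Psmb6, Psmc6, Psmd12, Psmd9 and Psme4), against 12.4% of all windows. The 3 motifs are unlike in their fixed letters, and in these windows a match is a description and not a binding site. The 250 bases upstream are printed for the 2 immunoproteasome genes that rose and for Psmb5, which fell, 5′ to 3′ on the strand of the gene, with motif matches in capitals.
Psmb8 (chr17:34197945-34198194, plus strand): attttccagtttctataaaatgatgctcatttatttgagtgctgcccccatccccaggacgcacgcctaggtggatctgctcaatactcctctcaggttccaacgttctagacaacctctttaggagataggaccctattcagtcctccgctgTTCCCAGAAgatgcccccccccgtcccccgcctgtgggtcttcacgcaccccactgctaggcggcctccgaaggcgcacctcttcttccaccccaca
Psmb9 (chr17:34187331-34187580, minus strand): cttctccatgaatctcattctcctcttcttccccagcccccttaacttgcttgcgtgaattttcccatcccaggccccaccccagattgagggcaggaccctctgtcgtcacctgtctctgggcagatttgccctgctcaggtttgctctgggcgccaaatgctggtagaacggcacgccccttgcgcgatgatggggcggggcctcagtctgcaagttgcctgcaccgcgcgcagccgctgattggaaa
Psmb5 (chr14:54617996-54618245, minus strand): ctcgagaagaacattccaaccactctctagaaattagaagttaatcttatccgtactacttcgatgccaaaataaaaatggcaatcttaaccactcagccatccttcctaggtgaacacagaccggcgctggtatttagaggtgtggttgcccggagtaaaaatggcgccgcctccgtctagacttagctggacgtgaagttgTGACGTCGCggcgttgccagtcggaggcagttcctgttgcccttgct
The capitals mark the GAS letters in Psmb8, which begin 97 bases before the start, and the antioxidant response letters in Psmb5, which begin 47 bases before it. None of the 3 motifs was found in the window of Psmb9. That window is also the one of Tap1, which is read in the other direction: 275 of the 300 bases of the 2 windows are shared.

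Tap1, which encodes a subunit of the transporter that carries proteasome products into the endoplasmic reticulum, rose at all 3 days, with its largest difference at day 6. The day 4 arrays gave log2 relative signals of −0.80 and −0.69 in shIno80 arrays, against −2.70 and −2.61 in shNT arrays. At day 6 it was −0.27 and −0.19 in shIno80 arrays, against −2.66 and −2.69 in shNT arrays. The difference was 0.44, 1.92 and 2.45 at days 2, 4 and 6 (SE 0.09, limma adjusted p = 0.0207, 6.09e-06 and 1.29e-06). Between days 4 and 6 the difference of Tap1 changed by 0.53, which did not pass the test (limma adjusted p = 0.0697), against −0.87 for Psmb9, which did. The 2 changes were not tested against each other. Of 14 kept genes of antigen processing and its interferon control, 2 were higher and 1 lower at day 2, 8 higher and 1 lower at day 4, and 9 higher and 2 lower at day 6, with medians of 0.33, 0.48 and 1.05, against 0.02, −0.05 and −0.14 over all genes. Of all genes 6.29%, 20.9% and 21.0% were higher and 6.21%, 21.3% and 29.5% lower on those days. Under the record of the scanner files 0 of the 14 were called on any day and 0 had an unadjusted p under 0.05, and Tap1 gave −0.02, 0.10 and 0.02. In the 13 other settings Tap1 kept its calls of days 4 and 6, and its day 2 call in 7. B2m, the light chain of MHC class I, was higher by 1.31 and 1.84 at days 4 and 6. The heavy chain gene H2-K1 was higher by 1.44 and 1.18, and Erap1, which trims peptides, by 1.41 and 1.70. Ifngr1, a chain of the interferon gamma receptor, was higher by 1.83 at day 4 and 1.54 at day 6. The transcription factors on this list did not share that direction: Irf9 fell on all 3 days, by 0.91, 0.95 and 1.20 on the log2 scale, Irf8 fell by 0.91 at day 6, and Irf1 passed the test on no day (limma adjusted p = 0.441, 0.35 and 0.445). Near-identical MHC class I genes can share probe signal, so the H2 values are uncertain in that respect.

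**Figure D2:**
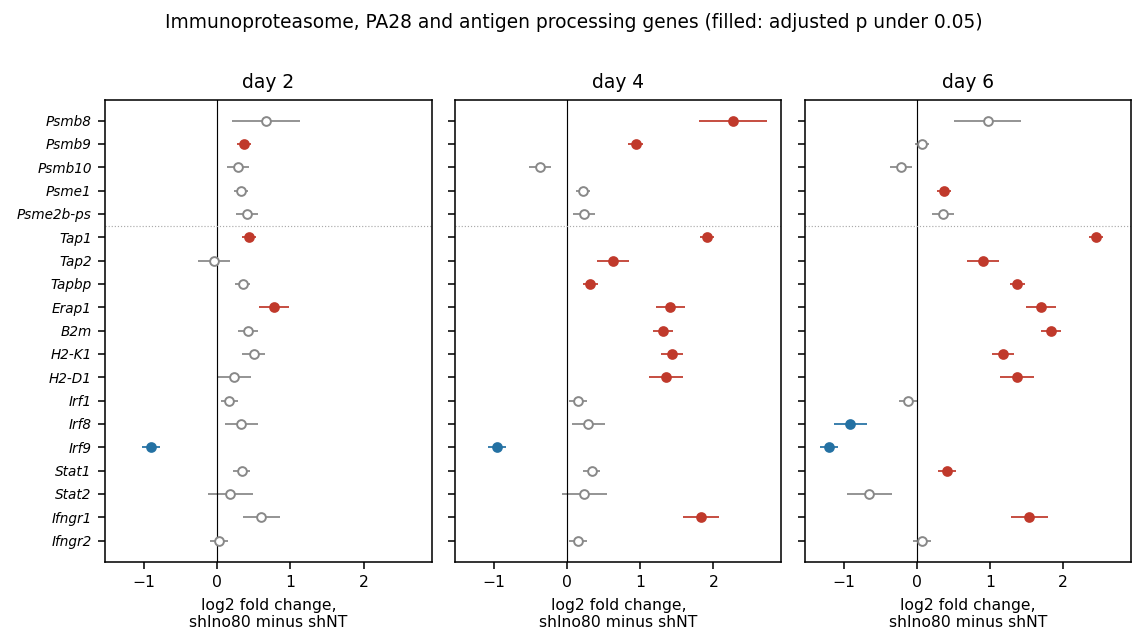
Log2 fold change (shIno80 minus shNT) with its SE at days 2, 4 and 6 for the immunoproteasome and PA28 genes (above the dotted line) and the 14 antigen processing genes; filled points passed limma's test at an adjusted p under 0.05, red for higher and blue for lower. Filled red points number 2, 8 and 9 among the antigen processing genes on the 3 days, while Psmb9 is near 0 at day 6.

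The activators gave calls in both directions. Psme1 and Psme2 encode the PA28 ring that opens the core particle and works with the immunoproteasome; Psme1 had values above shNT on all 3 days and passed the test at day 6. The day 2 arrays gave log2 relative signals of 3.99 and 3.92 in shIno80 arrays, against 3.64 and 3.61 in shNT arrays. On day 4 they were 3.68 and 3.50 in shIno80 arrays, against 3.36 and 3.39 in shNT arrays, and at day 6 4.10 and 4.08 in shIno80 arrays, against 3.76 and 3.68 in shNT arrays. The shIno80 arrays were above the shNT arrays on each day without overlap, with differences of 0.33, 0.21 and 0.37 (SE 0.10, limma adjusted p = 0.0595, 0.108 and 0.0115). The day 6 call was lost without replicate 1 of shIno80, without replicate 2 of shNT and with array medians as the scale. The probe that the files name Psme2b-ps matches Psme2 and a processed copy of it, which cannot be told apart. Its log2 relative signal was 4.79 and 4.57 in shIno80 arrays, against 4.42 and 4.24 in shNT arrays at day 6, and the differences of 0.41, 0.23 and 0.35 did not pass the test (limma adjusted p = 0.122, 0.263 and 0.0818), although under quantile normalization it was called higher on all 3 days. Psme3, the nuclear PA28 gamma, was called lower at day 6, where its log2 relative signal was 2.00 and 2.19 in shIno80 arrays, against 2.60 and 2.50 in shNT arrays, a difference of −0.45 (SE 0.14, limma adjusted p = 0.0295). That call held in 6 of 13 other settings and was lost under both quantile settings, in the authors' deposited values (−0.19), with no filter on dim probes and without replicate 1 of shIno80 or either shNT replicate. Psme4, which encodes the large activator PA200, had 5.35 and 5.16 in shIno80 arrays, against 5.26 and 5.25 in shNT arrays at day 6 and a difference of 0.00 (limma adjusted p = 0.993).

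Of the 39 standard members 2, 11 and 20 were called lower in shIno80 cells at days 2, 4 and 6, by small differences, and 0, 0 and 1 higher. At day 2, 2 of 39 were called lower and 0 higher by limma, where 6.21% of all 19184 genes were lower and 6.29% higher; at an unadjusted p under 0.05, 5 of the members were lower and 3 higher. At day 4, 11 were lower and 0 higher (14 and 0 at an unadjusted p under 0.05), where 21.3% of all genes were lower and 20.9% higher, so the share of the members that were lower was 28.2%. At day 6, 20 were lower, or 51.3%, and 1 was higher, where 29.5% of all genes were lower and 21.0% higher. Of the 11 genes lower at day 4, 10 were also lower at day 6, the exception being Psmd9, and both genes lower at day 2 were lower at day 6. Their median difference was −0.08, −0.20 and −0.35 at days 2, 4 and 6, against 0.02, −0.05 and −0.14 over all genes. The shIno80 arrays lay below the shNT arrays without overlap for 12, 21 and 31 of the 39 members on the 3 days, which is true of 21.5%, 40.1% and 45.3% of all genes. Without 1 array of day 4 the count lower at that day fell to 7 (shIno80 replicate 1 or shNT replicate 1 left out) or 5 (replicate 2 of either left out), and at day 6 to 12 to 14.

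**Figure D3:**
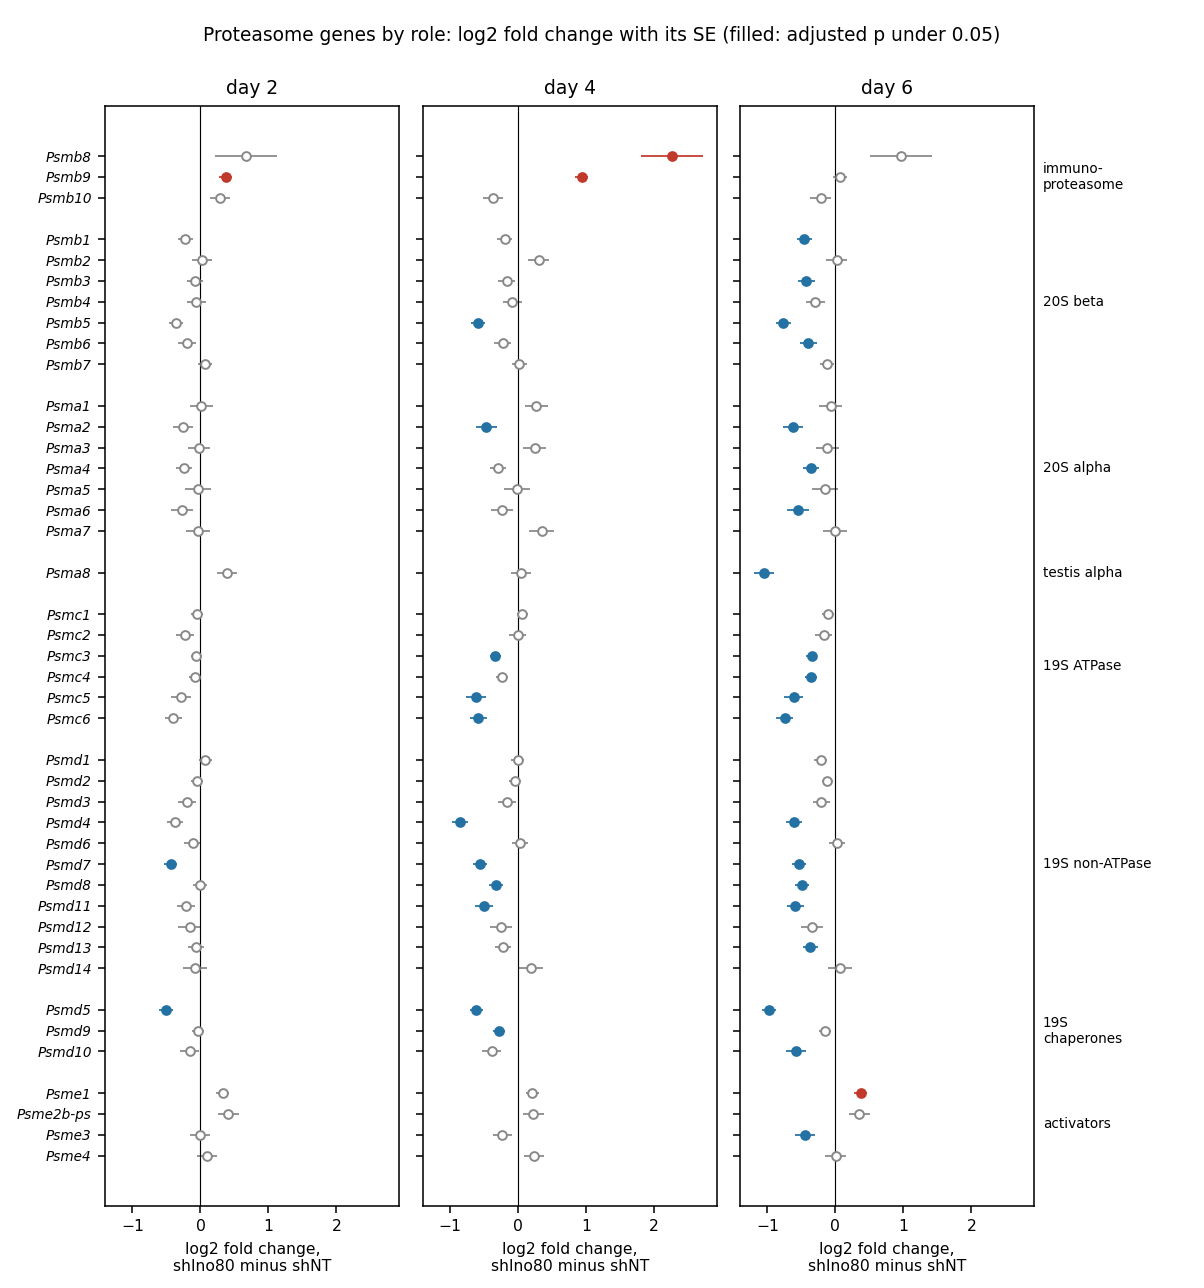
Log2 fold change (shIno80 minus shNT) with its SE for 42 subunit genes by role, at days 2, 4 and 6; filled points passed limma's test at an adjusted p under 0.05, red for higher and blue for lower. Psmb8 and Psmb9 stand to the right at day 4, and at day 6 blue points are spread over all classes of the constitutive particle, with 20 of the 39 standard members lower.

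How far these counts lay from those of other genes depended on the scaling between arrays. Bright probes as a class were lower: the 1143 genes whose mean log2 relative signal lay between 3.78 and 5.51, the range of the middle of the members, had medians of −0.05, −0.19 and −0.31 at days 2, 4 and 6, and 5.6%, 31.1% and 42.7% of them were called lower. The members' share was below that at day 4 (28.2%) and above it at day 6 (51.3%). That difference was not tested. Under quantile normalization, which gives every array the same distribution of signals, the members' median was −0.04 at day 4 and −0.10 at day 6, against −0.04 and −0.09 over all genes, so the members' median less that of all genes turned from −0.15 to 0.01 at day 4 and shrank from −0.21 to −0.01 at day 6. The split of calls became 9 lower and 8 higher at day 4 and 13 lower and 4 higher at day 6, where 22.5% of all genes were lower and 23.0% higher at day 4 and 28.2% lower and 23.7% higher at day 6. The genes called higher under it at day 4 were Psma1, Psma3, Psma7, Psmb2, Psmd14, Psme1, Psme2b-ps and Psme4. With array medians as the scale the split was 12 lower and 0 higher at day 4 and 20 lower and 0 higher at day 6. On that scale 25.6% of all genes were lower and 16.5% higher at day 4, and 32.0% lower and 18.3% higher at day 6. With the authors' deposited values the split was 9 lower and 1 higher at day 4 and 8 lower and 2 higher at day 6. In those values 18.8% of all genes were lower and 23.1% higher at day 4, and 17.9% lower and 29.2% higher at day 6. Under the record of the scanner files limma called 0 of 39 on each day, and 1, 0 and 0 had an unadjusted p under 0.05. Under the quantile settings members of the particle were thus called in both directions.

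**Figure D4:**
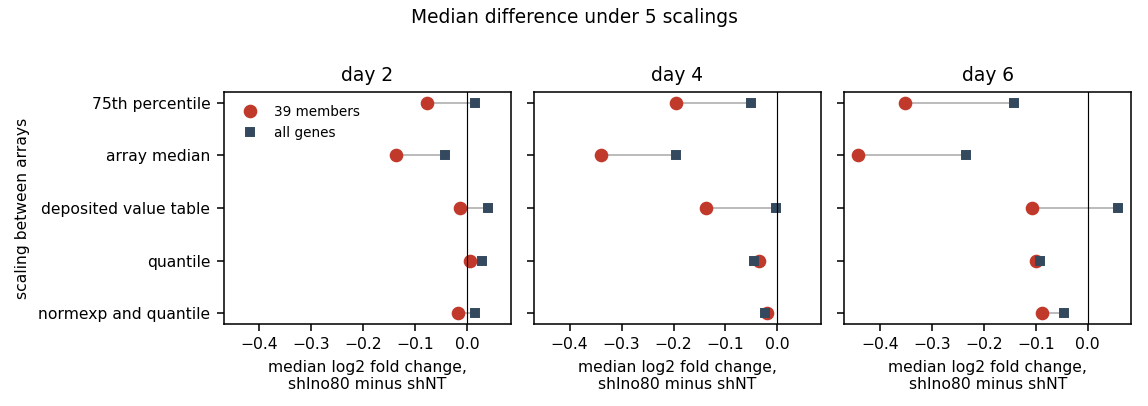
Median log2 fold change (shIno80 minus shNT) of the 39 standard members (red circles) and of all genes (dark squares) at days 2, 4 and 6, 1 row for each of 5 scalings between arrays. At day 6 the 2 medians are −0.35 and −0.14 with the 75th percentile as the scale and −0.10 and −0.09 after quantile normalization.

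Replicate arrays were least alike at day 2. There the median over the 39 members of replicate 2 minus replicate 1 was 0.15 in shIno80 and 0.25 in shNT, larger than the median difference between the hairpins on that day. At day 4 it was −0.04 in shIno80 and 0.10 in shNT, and at day 6 −0.08 in shIno80 and 0.03 in shNT. Only Psmd5 and Psmd7 passed the test among the standard members at day 2.

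In the core particle, members of both kinds of ring were called lower at day 6. Of the 7 constitutive beta subunit genes 0, 1 and 4 were lower at days 2, 4 and 6, and none was higher (medians −0.08, −0.17 and −0.40). Of all genes 6.21%, 21.3% and 29.5% were lower. Psmb5, the chymotrypsin-like subunit, fell most of them. Log2 relative signals of Psmb5 were 4.74 and 4.84 in shIno80 arrays, against 5.06 and 5.24 in shNT arrays at day 2. They were 5.01 and 4.83 in shIno80 arrays, against 5.51 and 5.50 in shNT arrays at day 4, and at day 6 4.80 and 4.74 in shIno80 arrays, against 5.52 and 5.54 in shNT arrays. The shIno80 arrays thus stayed between 4.74 and 5.01 while the shNT arrays of days 4 and 6 lay above those of day 2. Between adjacent days the change of Psmb5 in shNT arrays did not pass the test, and shNT day 6 was not tested against day 2. The differences were −0.36, −0.58 and −0.77 (SE 0.11, limma adjusted p = 0.061, 0.00262 and 0.00049). Psmb6, the caspase-like subunit, had 5.41 and 5.40 in shIno80 arrays, against 5.84 and 5.77 in shNT arrays at day 6, a difference of −0.40 (SE 0.13, limma adjusted p = 0.0301). That call held in 5 of 13 other settings, over which the difference lay between −0.49 and −0.09. It was lost under both quantile settings and in the authors' deposited values, among others. Psmb7, the trypsin-like subunit, had 3.99 and 4.04 in shIno80 arrays, against 4.09 and 4.18 in shNT arrays at day 6, a difference of −0.12 that did not pass the test (SE 0.11, limma adjusted p = 0.37). The 2 catalytic pairs with a changed partner at day 4 gave values of opposite sign there: Psmb8 was higher by 2.27 and Psmb5 changed by −0.58, and Psmb9 was higher by 0.94 with Psmb6 at −0.23 (limma adjusted p = 0.194). Psmb1 (−0.45) and Psmb3 (−0.43), which have no proteolytic site, also fell at day 6, and Psmb2 (0.02) and Psmb4 (−0.30) did not pass the test. The day 6 call of Psmb1 held in 11 of 13 other settings and that of Psmb3 in 6.

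Of the 7 alpha subunit genes 0, 1 and 3 were lower at days 2, 4 and 6 and none was higher, with medians of −0.04, −0.02 and −0.15. Of all genes 21.3% and 29.5% were lower at days 4 and 6. Psma2 fell by 0.47 at day 4 and by 0.62 at day 6 (SE 0.15, limma adjusted p = 0.0374 and 0.00889). Psma6 (−0.55) and Psma4 (−0.36) were lower at day 6, and Psma1, Psma3, Psma5 and Psma7 passed the test on no day, with day 6 values between −0.15 and −0.01. The day 6 call of Psma6 held in 8 of 13 other settings and that of Psma4 in 5. For Psma2 the day 4 call held in 8 of 13 and the day 6 call in 12. Psma7 had 6.58 and 6.55 in shIno80 arrays, against 6.11 and 6.32 in shNT arrays at day 4, a difference of 0.35 (limma adjusted p = 0.161), which became 0.55 under quantile normalization and passed there.

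Psma8, an alpha subunit made in male germ cells in place of Psma7, was near its shNT level at day 4 and fell at day 6. The log2 relative signal of Psma8 was 2.41 and 2.60 in shIno80 arrays, against 1.91 and 2.33 in shNT arrays at day 2 and 1.96 and 1.89 in shIno80 arrays, against 1.84 and 1.92 in shNT arrays at day 4. At day 6 it was 0.37 and 0.35 in shIno80 arrays, against 1.33 and 1.49 in shNT arrays, and both shIno80 values lay below every other array. The difference of −1.06 at day 6 (SE 0.15, 2.08-fold lower, limma adjusted p = 0.000505) was the lowest of the 43 genes and was called in all 13 other settings apart from the record of the scanner files. Over the days the difference changed by −1.44 from day 2 to day 6 (limma adjusted p = 0.00188) and by −1.10 from day 4 to day 6 (limma adjusted p = 0.0303). With array medians as the scale the change from day 2 passed (limma adjusted p = 0.00439) and that from day 4 did not (limma adjusted p = 0.0772). The thymus-specific Psmb11, which the array lists under another name, was well above background for its 2 probes on 1 and 3 of the 12 arrays and is not a member by the rule.

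In the regulatory particle, 4 of the 6 ATPase genes and 5 of the 11 non-ATPase genes were lower at day 6, and none of either was higher. Of all genes 29.5% were lower, and of those as bright as the middle of the members 42.7%. Psmc6, an ATPase of the base, had a log2 relative signal of 4.94 and 5.13 in shIno80 arrays, against 5.31 and 5.55 in shNT arrays at day 2. At day 4 it was 5.05 and 4.91 in shIno80 arrays, against 5.51 and 5.63 in shNT arrays, and at day 6 4.78 and 4.65 in shIno80 arrays, against 5.41 and 5.50 in shNT arrays, with differences of −0.40, −0.59 and −0.74 (SE 0.13, limma adjusted p = 0.0773, 0.00594 and 0.00144). The ATPase gene Psmc5 fell by 0.61 and 0.62 at days 4 and 6, Psmc3 by 0.33 and 0.35, and Psmc4 by 0.36 at day 6. The day 4 call of Psmc3 held in 6 of 13 other settings and its day 6 call in 9. Both were lost under both quantile settings and in the authors' deposited values. For Psmc4 the day 6 call held in 9 of 13 other settings. Psmc1 and Psmc2 passed the test on no day. Psmd4, a ubiquitin receptor, fell most at day 4, where its log2 relative signal was 4.21 and 3.97 in shIno80 arrays, against 4.85 and 5.02 in shNT arrays. At day 2 it was 4.49 and 4.35 in shIno80 arrays, against 4.82 and 4.76 in shNT arrays, and at day 6 4.23 and 4.17 in shIno80 arrays, against 4.77 and 4.85 in shNT arrays. The differences were −0.37, −0.85 and −0.61 (SE 0.12, limma adjusted p = 0.0797, 0.000645 and 0.00282).

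The lid subunit genes Psmd7 and Psmd11 also fell. Psmd7, the partner of the deubiquitinase Psmd14, fell by 0.44, 0.56 and 0.54 on the 3 days (SE 0.10, limma adjusted p = 0.0282, 0.00262 and 0.00258). The day 2 call of Psmd7 held in 5 of 13 other settings, and its day 4 and day 6 calls in 12 each. It was lost at day 2 with array medians, with the mean of probes and in the authors' deposited values, among others. Psmd11 fell by 0.50 and 0.59 at days 4 and 6. Psmd8 had 3.12 and 3.20 in shIno80 arrays, against 3.65 and 3.65 in shNT arrays at day 6, a difference of −0.49 (limma adjusted p = 0.00383), and its difference changed by −0.48 from day 2, where it had been −0.01 (limma adjusted p = 0.0364). With array medians as the scale the change from day 2 to day 6 was −0.52 and did not pass the test (limma adjusted p = 0.101). Psmd13 had 1.66 and 1.69 in shIno80 arrays, against 1.99 and 2.09 in shNT arrays at day 6, a difference of −0.37 (limma adjusted p = 0.0272). That call of Psmd13 held in 7 of 13 other settings. The scaffold genes Psmd1 and Psmd2, and Psmd3, Psmd6, Psmd12 and Psmd14 passed the test on no day; Psmd14 itself, the deubiquitinase, had 0.06 at day 6 (limma adjusted p = 0.788).

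By the brightest probe of each gene, the 3 chaperones that help the regulatory particle's base to assemble were all below shNT in fitted value on every day. Psmd5 was the standard member with the lowest mean difference over the 3 days (−0.70). The shIno80 values of Psmd5 lay below the shNT values throughout: log2 relative signals were 3.13 and 3.23 in shIno80 arrays, against 3.59 and 3.77 in shNT arrays at day 2. They were 3.16 and 3.17 in shIno80 arrays, against 3.78 and 3.78 in shNT arrays at day 4, and at day 6 2.74 and 2.83 in shIno80 arrays, against 3.76 and 3.76 in shNT arrays. The 2 groups were far apart on each day relative to the replicates, with differences of −0.51, −0.61 and −0.97 (SE 0.10, limma adjusted p = 0.015, 0.00131 and 8.59e-05), and the day 6 value was 1.97-fold lower. From day 2 to day 6 the difference changed by −0.47 (limma adjusted p = 0.0375). With array medians as the scale that change was −0.50 and did not pass the test (limma adjusted p = 0.0977). Psmd10, known as gankyrin, had 1.19 and 0.96 in shIno80 arrays, against 1.66 and 1.65 in shNT arrays at day 6, a difference of −0.58 (limma adjusted p = 0.00945). Psmd9 had 1.05 and 0.92 in shIno80 arrays, against 1.29 and 1.23 in shNT arrays at day 4, a difference of −0.28 (limma adjusted p = 0.0385), and −0.15 at day 6 (limma adjusted p = 0.201). The day 4 call of Psmd9 rested on 1 of its 2 probes, and the other probe gave 0.09, −0.27 and 0.03 on the 3 days. That call held in 4 of 13 other settings. Apart from the record of the scanner files, Psmb5, Psmc6, Psmd4 and Psmd5 kept their day 4 calls in all 13 other settings, and Psma8, Psmb5, Psmc5, Psmc6, Psmd11 and Psmd5 their day 6 calls.

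**Figure D5:**
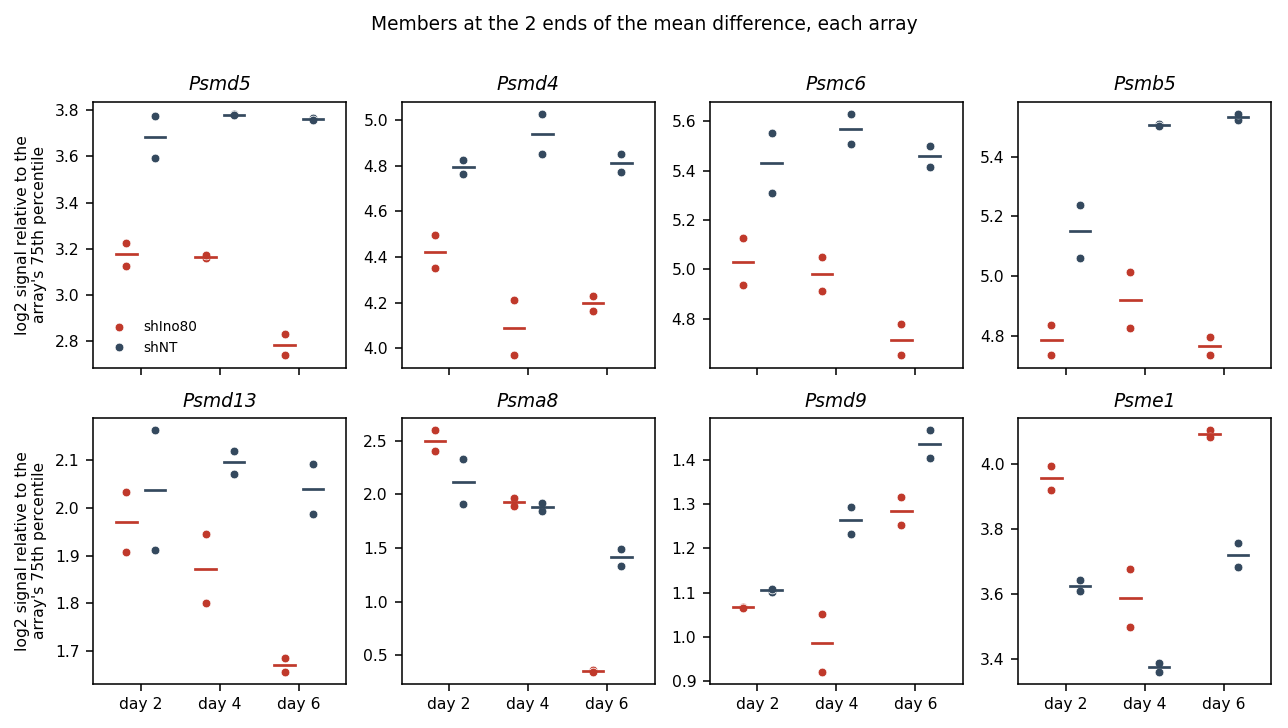
Log2 relative signal on every array for the 4 standard members with the lowest and the 4 with the highest mean difference among those that passed the test on at least 1 day, with shIno80 in red to the left of shNT in dark blue; each dot is 1 array and each line the mean of 2. Psmd5, Psmd4, Psmc6 and Psmb5 are lower in shIno80 arrays on all 3 days, Psme1 is higher on all 3, and Psma8 separates at day 6.

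Between adjacent days, more standard members passed the test in shIno80 cells than in shNT cells, as did more genes in all. Between days 2 and 4, 5 of the 39 standard members were higher and 3 lower in shIno80 cells, where 20.7% of all genes were higher and 18.1% lower, against 0 and 0 in shNT cells (7 higher and 1 lower at an unadjusted p under 0.05), where 7.63% were higher and 6.72% lower. Between days 4 and 6, 2 were higher and 8 lower in shIno80 cells, where 8.21% of all genes were higher and 17.0% lower, against 1 higher and 0 lower in shNT cells (3 and 5 at an unadjusted p under 0.05), where 7.83% were higher and 8.78% lower. Tested directly, the difference between hairpins changed for few members: 0 of 39 between days 2 and 4, where 8.17% of all genes had a higher and 7.15% a lower difference, with 2 lower and 0 higher at an unadjusted p under 0.05. Between days 4 and 6 it was 1 of 39, Psma8, lower, where 2.25% of all genes were lower and 1.55% higher. Between days 2 and 6 it was 3 of 39, Psma8, Psmd5 and Psmd8, all lower, where 15.8% of all genes were lower and 11.3% higher. In shIno80 cells Psma7 was higher at day 4 than at day 2 by 0.70 and Psmb2 by 0.63, while Psme4 fell by 0.61 between days 4 and 6.

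Genes that build, feed or regulate the proteasome changed in both directions. Under the record of the scanner files 0 of the genes of the lists in this and the next paragraph were called on any day. At day 2, 1 of the 5 assembly factors and regulators had an unadjusted p under 0.05. The same was true of 1 of 6 genes of ubiquitin and its activating enzymes. Of 5 kept assembly factors and regulators of the core particle, 0, 1 and 2 were lower and 0, 0 and 1 higher on the 3 days. Of all genes 21.3% and 29.5% were lower and 20.9% and 21.0% higher at days 4 and 6. Psmg1 and Psmg2, which together start the alpha ring, fell by 0.97 and 0.77 at day 6 (limma adjusted p = 0.000867 and 0.00207), and the inhibitor Psmf1 was higher by 0.44 (limma adjusted p = 0.00699). Pomp, the maturation factor, passed the test on no day. Of 6 genes of ubiquitin receptors, deubiquitinases and other proteins at the particle, Uchl5 alone passed, with 0.52 at day 4 (limma adjusted p = 0.0407). Of 8 shuttle factors, 0, 1 and 1 were higher and 0, 1 and 2 lower. Zfand2a, known to be induced by arsenite, was higher by 1.08 and 1.35 at days 4 and 6, and Ubqln4 fell by 0.92 and 0.84. The p97 ATPase gene Vcp was higher by 0.47 at day 6 and its cofactor Nploc4 by 0.51, while the cofactor Ufd1 fell by 0.43.

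Among 8 genes that control transcription of the particle, 1, 3 and 3 were higher and 0, 1 and 1 lower on the 3 days. This compares with all genes, of which 6.29%, 20.9% and 21.0% were higher and 6.21%, 21.3% and 29.5% lower. Nfe2l1, which is known to raise transcription of proteasome genes when the particle is inhibited, passed the test on no day, with values of 0.08, −0.03 and 0.02 (SE 0.16, limma adjusted p = 0.825, 0.9 and 0.928). Its relative Nfe2l2 fell by 0.43 and 0.74 at days 4 and 6 (limma adjusted p = 0.0368 and 0.0027). The small Maf gene Mafk was higher by 0.69, 1.45 and 1.67 on the 3 days (limma adjusted p = 0.00748, 3.27e-05 and 1.18e-05), and Maff by 1.76 at day 4 (limma adjusted p = 0.000801). The ubiquitin activating enzyme gene Uba6 fell by 0.58 at day 4 and by 0.44 at day 6.

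Of the 43 genes, 17 had more than 1 probe, and 1 probe of Psmd11 never rose well above background and was not kept. For the other 16 the probes' day 6 differences lay within 0.2 of each other in 12. The exceptions were Psmc2, Psmd7, Psmd12 and Psme4. For Psmd7, 2 probes fell by 0.54 and 0.52 at day 6 while the dim remaining one gave −0.02. For Psmd12, whose reported probe did not pass, 2 of 3 probes were called lower at day 6. Psmc3ip, the gene set apart, fell at days 4 and 6 by 0.57 and 0.55 (limma adjusted p = 0.0114 and 0.0111).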

How the data were processed

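Gene expression was measured on 12 one-colour Agilent arrays of total RNA from J1 cells, 2 arrays for each of 6 groups. The scanner files hold intensity values that Feature Extraction 9.5.3.1 had background-subtracted and detrended, per the file headers. In the deposited value table, log2 values stand for each sample, and every column equalled 1 scanner file's mean spot intensity times 1 factor (relative tolerance 1e-06). No header or label states the authors' choice of factors. Groups follow the value table's columns. The members and gene lists were chosen with earlier results of these data known.

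Processed intensity was divided by the array's 75th percentile and logged. Spots with outlier marks were left out (125 probes dropped), probes were kept if well above background on the 2 arrays of any group (28657), and each gene was represented by its brightest probe. Probes were named by the RefSeq gene table of GRCm38.p6, and no genome was used. limma 3.58.1 in R 4.3.3 fitted 6 group means to 12 arrays, with Benjamini-Hochberg adjustment over 19184 genes and a threshold of 0.05, and was tested on simulated data. Values per array were given for the immunoproteasome, catalytic, activator, chaperone and testis subunits and for the 4 lowest and 4 highest standard members by mean difference over the 3 days among those called on at least 1 day. Of other pathway genes, those called with the 2 largest rises and falls of each list were named, apart from 1 result that is not reported here. Alternatives were other scalings, the value table, filters, probe rules, the replicate block, 1 slide alone, the scanner files' record and leaving out each array. The number of arrays limits the precision. Slide and day coincide, and slide position and hairpin coincide.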

Additional observations from a re-analysis of the deposited data

Results flagged for a closer look

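The difference between shIno80 and shNT itself changed between days for 4 of the 43 genes, by a limma test of that change. From day 2 to day 4 it was 1 of 43, higher, where 8.17% of all genes were higher and 7.15% lower. From day 4 to day 6 it was 2 of 43, both lower, where 2.25% of all genes were lower and 1.55% higher. From day 2 to day 6 it was 3 of 43, all lower, where 15.8% of all genes were lower and 11.3% higher. The difference of Psmb9, on the log2 scale, changed by 0.57 from day 2 to day 4 (SE 0.14, limma adjusted p = 0.0293) and by −0.87 from day 4 to day 6 (SE 0.14, limma adjusted p = 0.0177). Psma8 changed by −1.10 from day 4 to day 6 (SE 0.21, limma adjusted p = 0.0303) and by −1.44 from day 2 to day 6 (SE 0.21, limma adjusted p = 0.00188). Psmd5 changed by −0.47 (SE 0.14, limma adjusted p = 0.0375) and Psmd8 by −0.48 (SE 0.14, limma adjusted p = 0.0364) from day 2 to day 6. With array medians as the scale, 0 of 43 genes passed from day 2 to day 4 or from day 4 to day 6, and 1 from day 2 to day 6. That gene was Psma8, and the calls of Psmd5 and Psmd8 were lost. Groups of 2 arrays were not tested for outliers.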

How the results depend on the processing

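The scalings decided how many standard members were called. At days 2, 4 and 6 the counts lower and higher were 2 and 0, 11 and 0, and 20 and 1 as reported. They were 3 and 2, 9 and 8, and 13 and 4 under quantile normalization. With normexp and quantile they were 4 and 2, 10 and 9, and 14 and 7. The value table gave 1 and 2, 9 and 1, and 8 and 2. Array medians gave 1 and 0, 12 and 0, and 20 and 0. The shares of all genes were, in the same order, 7.4% and 8.1%, 22.5% and 23.0%, and 28.2% and 23.7% under quantile normalization. For normexp and quantile they were 8.45% and 9.16%, 22.5% and 23.3%, and 28.2% and 23.6%. For the value table they were 5.31% and 7.7%, 18.8% and 23.1%, and 17.9% and 29.2%. For array medians they were 5.37% and 3.72%, 25.6% and 16.5%, and 32.0% and 18.3%. The median difference, −0.20 at day 4 and −0.35 at day 6, depended on the scale: it was −0.035 and −0.10 under quantile normalization, −0.021 and −0.088 with normexp, and −0.34 and −0.44 with array medians, and at day 6 −0.11 in the value table. Array medians moved the median of all genes at day 4 to −0.19, against −0.05 as reported, and the value table moved it at day 6 to 0.06, against −0.14. The day 2 counts were thin: lower calls numbered 1 with the mean of probes, 1 with no filter on dim probes and 0 with the slide of that day alone (2 at an unadjusted p under 0.05), and 1 gene was higher with probes well above background on all arrays. With normexp and quantile, 3 uncalled genes passed in the other direction: Psmc2 at 0.21 (day 4), and Psma7 at 0.32 and Psmd3 at 0.25 (day 6).

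Under the scanner files' record, each group of a day mixed arrays that correlate with both hairpins, and 0 of 39 were called lower and 0 higher on each day; the median was 0.22, 0.034 and −0.026. The sign turned for Psmd5 (0.14) and Psmd7 (0.12) at day 2; for Psma2 (0.07), Psmb8 (−0.39), Psmb9 (−0.12), Psmc3ip (0.05), Psmd11 (0.071), Psmd5 (0.0057) and Psmd7 (0.024) at day 4; and for Psma8 (0.073), Psmc4 (0.042), Psmc5 (0.028), Psmd13 (0.066), Psmd4 (0.0078), Psmd5 (0.043), Psmd8 (0.043), Psme1 (−0.047) and Psme3 (0.047) at day 6. None of these passed the test there.

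Leaving out 1 array gave 0 to 2 lower and 0 to 1 higher at day 2, 5 to 7 lower and 0 higher at day 4, and 12 to 14 lower and 0 to 1 higher at day 6, with medians of −0.26 to −0.017, −0.23 to −0.15 and −0.36 to −0.32; such fits hold fewer arrays, and the lone array of a group is assumed to vary like the others. Same-numbered arrays of the 2 hairpins deviated partly alike from their group means, most at day 2. Their deviations correlated at 0.296, 0.117 and 0.083 on the 3 days. The labels do not say whether the numbers pair the arrays, and the reported fit holds no pairing. With the replicate block the counts stayed at 2, 11 and 20 lower and 0, 0 and 1 higher, and the call of no member on any day changed. Of changes between days in shIno80 cells, chosen as an alternative after seeing the data, 1 of 43 was higher between days 4 and 6 with the replicate block, against 2. With array medians, 4 were higher between days 2 and 4, against 7, and 1 was higher and 1 lower between days 4 and 6, against 2 and 8. The changes of the difference called with array medians numbered 0 from day 2 to day 4, against 1, 0 from day 4 to day 6, against 2, and 1 from day 2 to day 6, against 3. The cause of these differences between settings was not tested.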
